A study of Homo sapiens with 6 samples.

Results

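The HOX genes of 3 human lung adenocarcinoma cell lines are described here. The members are all genes in the deposited tables whose symbol is HOXA, HOXB, HOXC or HOXD followed by a number, which gives 39 of 21463 genes. They were chosen by name and not by any measured value. RNA sequencing was run on 3 EGFR-mutant non-small-cell lung cancer lines, each as 1 drug-resistant and 1 parental library, 6 libraries in all. The tyrosine kinase inhibitors gefitinib and osimertinib, which block the EGFR kinase, had been raised stepwise to select the resistant sublines over 90 days.

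The HCC827 and PC9 lines both carry an activating EGFR exon 19 deletion, and their resistant sublines were selected with gefitinib. The H1975 line carries the activating L858R and the gatekeeper T790M mutation, and its resistant subline was selected with osimertinib. Parental cells are the drug-sensitive cells of the same line. All cells were grown in RPMI medium with serum, and poly(A) RNA was made into stranded libraries. Each subline is a single derivation, so resistance, line and drug cannot be separated from chance differences between 1 pair of cultures. In bulk RNA, fewer cells expressing a gene and less RNA per cell cannot be told apart.

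HOX genes encode homeodomain transcription factors that give cells a position along the body axis. They sit in 4 clusters, and within each the order of the genes on the chromosome follows their order of use: low-numbered genes act towards the head and high-numbered genes towards the tail and limb ends. Polycomb complexes keep unused stretches of a cluster silent, trithorax complexes keep used stretches active, and adult cells tend to keep the combination they inherited. The lung, which buds from the anterior foregut, expresses mainly genes from the anterior and middle parts of the HOXA and HOXB clusters. In the coordinates of the deposited tables (hg38), the HOXA cluster lies on chromosome 7 on the minus strand with 11 genes. The HOXB cluster spans chromosome 17 from 48528526 to 48729178 on the minus strand with 10 genes. The HOXC cluster lies on chromosome 12 from 53938765 to 54056030 on the plus strand, and the HOXD cluster on chromosome 2 from 176092891 to 176190907 on the plus strand, with 9 genes each.

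The libraries held 21222102 to 29366085 reads in exons, and levels are given in CPM, the exon reads per library size after TMM scaling, so that 1 CPM stood for 20.7 to 30.55 reads. A count of 0 allows up to 0.0982 to 0.145 CPM at these depths, counting error only. Of the lung epithelial marker list, the keratins KRT8 and KRT18 were at 506 CPM or more in every library, and KRT7 and KRT19 at 74.6 CPM or more. Other members of the list were low in some lines. FOXA1 was at or below 0.381 CPM in H1975, and NAPSA at or below 0.55 CPM in PC9 and H1975. NKX2-1, the lineage factor of lung epithelium, reached 120.6 CPM in resistant and 140.0 CPM in parental HCC827, but stayed at or below 8.42 CPM in PC9 and H1975. SFTPC, a marker of alveolar type 2 cells, was at or below 0.0423 CPM everywhere, and the leukocyte markers PTPRC and CD3E were at or below 0.418 CPM. CD68, a lysosomal protein used as a macrophage marker, was at 50.9 to 174.8 CPM in the 6 libraries.

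Read assignment limits some members. HOX genes overlap, and the 12 members lying wholly inside the span of other listed genes kept a median of 6.4% of their exon reads when reads that could be assigned to only 1 gene were counted. The 13 members with reads and no overlap kept a median of 100%. Levels of nested members (HOXA4, HOXA5, HOXB4, HOXB5, HOXB8, HOXB9, HOXC5, HOXC8 and HOXD4 among them) are therefore uncertain, and the unique reads are given where a result turns on them.

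The lines carried different HOX combinations, and most of each was present in both libraries of the line. A total of 11 members reached 1 CPM in both HCC827 and both PC9 libraries but not in both H1975 libraries, among them HOXA2, HOXA3, HOXB3, HOXB7, HOXB9 and HOXC11. HOXB2 and HOXB13 did so in HCC827 alone, HOXA9 and HOXA11 in PC9 alone, and HOXC8 and HOXD4 in H1975 alone. Few of the HOXC8 (3.3%) and HOXD4 (14.9%) reads were unique. HOXA10, HOXC6 and HOXC13 reached 1 CPM in all 6 libraries. HOXC4 and HOXC10 did so in HCC827 and H1975, and HOXC9 in PC9 and H1975. In no line did the other 16 members reach 1 CPM in both libraries, and 12 of them were under 1 CPM in every library.

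**Figure D1:**
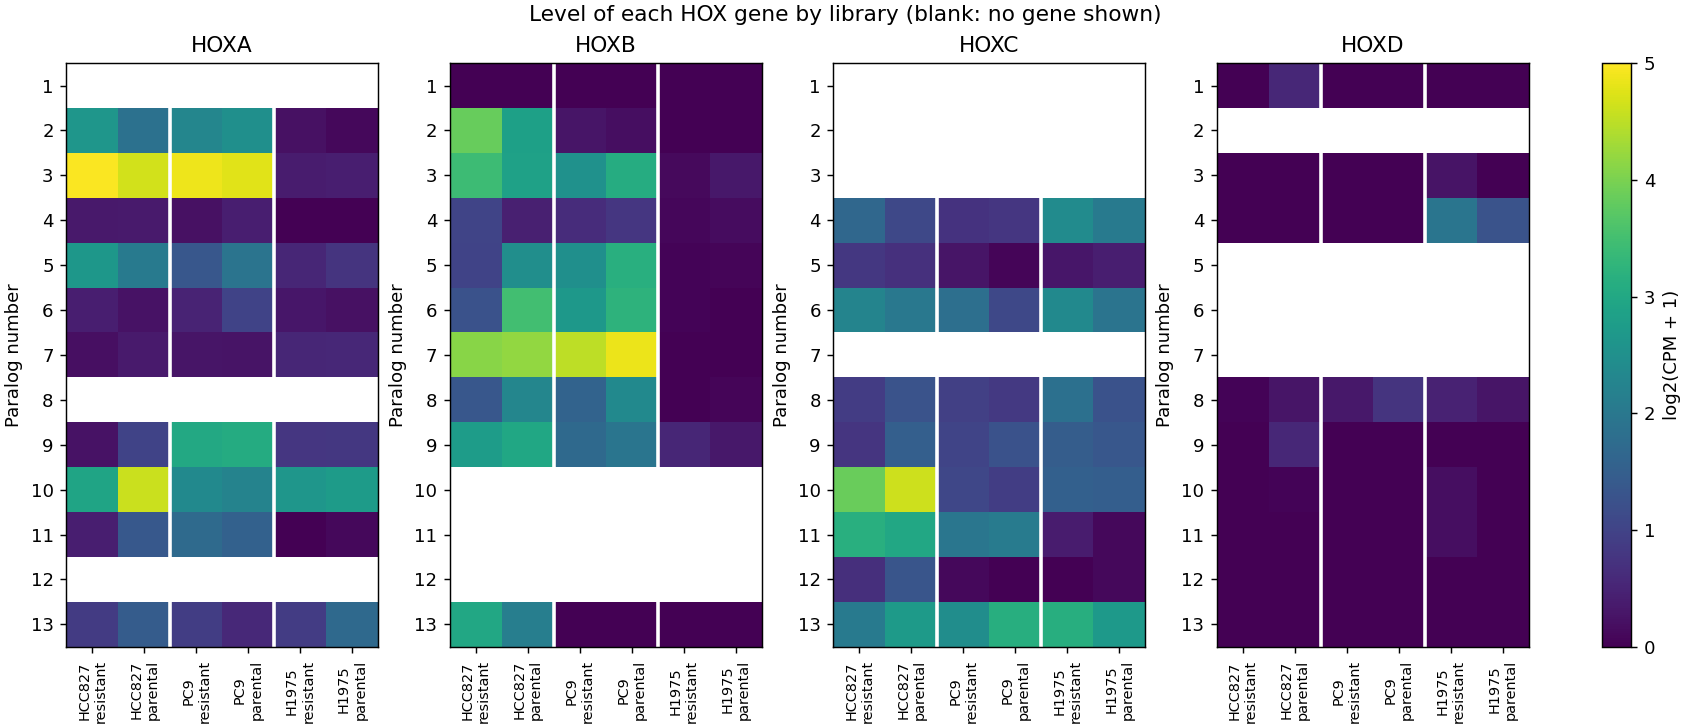
TMM-scaled level of the HOX members in the 6 libraries, ordered by cluster and paralog number, with colour on the log2(CPM + 1) scale. HOXB members are near 0 in both H1975 libraries, HOXB13 is filled only in HCC827, HOXA9 is highest in PC9 and HOXD4 is filled only in H1975.

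Promoter sequence is shown for 3 members that each stand for a different pattern: HOXA2 (HCC827 and PC9), HOXA9 (PC9) and HOXD4 (H1975). Each run is the 250 bases before the RefSeq transcription start (GRCh38.p14), 5′ to 3′ on the gene's strand, with CG dinucleotides in capitals.
HOXA2, chr7:27102684-27102933, minus strand: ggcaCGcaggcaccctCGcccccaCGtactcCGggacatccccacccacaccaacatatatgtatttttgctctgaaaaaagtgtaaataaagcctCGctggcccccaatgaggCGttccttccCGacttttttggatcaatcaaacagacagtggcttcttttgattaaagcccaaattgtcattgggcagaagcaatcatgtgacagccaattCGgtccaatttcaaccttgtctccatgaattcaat
HOXA9, chr7:27165538-27165787, minus strand: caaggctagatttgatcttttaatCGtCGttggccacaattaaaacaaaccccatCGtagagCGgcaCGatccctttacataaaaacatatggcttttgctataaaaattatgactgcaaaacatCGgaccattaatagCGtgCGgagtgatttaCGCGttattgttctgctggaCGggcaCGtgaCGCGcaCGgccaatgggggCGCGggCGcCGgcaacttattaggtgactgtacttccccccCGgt
HOXD4, chr2:176151300-176151549, plus strand: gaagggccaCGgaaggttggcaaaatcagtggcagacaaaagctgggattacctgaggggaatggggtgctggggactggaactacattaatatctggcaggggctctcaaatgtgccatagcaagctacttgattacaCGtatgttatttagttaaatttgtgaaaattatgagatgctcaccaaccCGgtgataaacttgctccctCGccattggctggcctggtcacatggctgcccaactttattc
The windows hold 8, 20 and 4 CG dinucleotides in HOXA2, HOXA9 and HOXD4. RefSeq windows were at hand for 20 of the 39 members (27 windows, since a gene can have several starts), with a median of 19 CG dinucleotides, against 11 over all 35116 windows. The HOXA2 window holds the motif TGATNNAT, the joint PBX and HOX site searched on both strands, which 6.5% of all windows hold. The HOXA9 window holds TATAAA, present in 10.7% of all windows, and the caudal-type motif TTTATG, present in 9.6%. The HOXD4 window holds none of the 3. These matches describe letters in the windows only, and no binding or methylation was measured.

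The HOXB cluster set H1975 apart. Its 10 members summed to 67.3 TPM (the length-scaled unit of the deposited tables) in resistant and 76.8 TPM in parental HCC827. In PC9 the sums were 59.3 TPM (resistant) and 84.2 TPM (parental), and in H1975 0.738 TPM (resistant) and 0.693 TPM (parental). No HOXB member reached 1 CPM in either H1975 library. HOXB7, a homeodomain factor of the middle of the cluster studied in several carcinomas, had the highest TPM of all members in both HCC827 and both PC9 libraries.

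HOXB7 stood at 16.2 (resistant) and 17.2 (parental) CPM in HCC827, 21.6 (resistant) and 27.8 (parental) CPM in PC9, and 0 reads in both H1975 libraries. The pooled level was at least 151-fold higher in HCC827 and at least 221-fold higher in PC9 than the 3-read floor per library allows in H1975. Between HCC827 and PC9 the difference was −0.55 ± 0.35 (log2, SE), with an edgeR adjusted p of 0.33. HOXB7 thus separated H1975 from the other lines, and its range in HCC827 did not overlap that in PC9.

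HOXB3, a gene of hindbrain and neck patterning, measured 9.72 (resistant) and 6.25 (parental) CPM in HCC827, 4.81 (resistant) and 7.54 (parental) CPM in PC9, and 0.0982 (resistant) and 0.254 (parental) CPM in H1975. HOXB9, active in the thoracic region, measured 5.76 (resistant) and 6.90 (parental) CPM in HCC827, 2.26 (resistant) and 2.85 (parental) CPM in PC9, and 0.458 (resistant) and 0.254 (parental) CPM in H1975. On all exon reads both were higher in every HCC827 and PC9 library than in either H1975 library. Only 5.2% of the HOXB9 reads were unique. These numbered 10 in resistant and 9 in parental HCC827, 0 in resistant and 6 in parental PC9, and 0 in each H1975 library. The order of resistant PC9 and H1975 for HOXB9 is therefore uncertain. HOXB5, which takes part in airway branching in mouse, reached 1.01 (resistant) and 4.58 (parental) CPM in HCC827, 4.64 (resistant) and 7.88 (parental) CPM in PC9, and 0.0327 (resistant) and 0.0423 (parental) CPM in H1975. HOXB6, its neighbour, reached 1.38 (resistant) and 10.2 (parental) CPM in HCC827 and 5.35 (resistant) and 8.36 (parental) CPM in PC9, with 1 read in H1975 resistant and 0 reads in H1975 parental cells. For both genes resistant HCC827 was the lowest of the HCC827 and PC9 libraries. HOXB8, below the 5 CPM used to choose genes for full values, ranged over 1.57 to 4.2 CPM in HCC827 and PC9 and had 0 or 1 read in H1975.

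HOXB2 and HOXB13, at opposite ends of the HOXB cluster, marked HCC827. HOXB2, a hindbrain gene, stood at 13.2 (resistant) and 6.21 (parental) CPM in HCC827, 0.209 (resistant) and 0.145 (parental) CPM in PC9, and 0 reads in both H1975 libraries. HOXB13, known as a marker of prostate and distal gut epithelium, stood at 6.99 (resistant) and 3.38 (parental) CPM in HCC827, with 0 reads in all 4 PC9 and H1975 libraries. Their reads in the files were all uniquely assigned. HOXB13 was at least 38.4-fold higher in HCC827 than in PC9 and at least 46.6-fold higher than in H1975. HOXB4 exceeded 1 CPM in 1 library only, at 1.05 CPM in resistant HCC827, and HOXB1 had 0 reads in every library.

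The anterior HOXA genes followed the HOXB pattern. HOXA3, which patterns the pharyngeal pouches in mouse, measured 30.2 (resistant) and 24.3 (parental) CPM in HCC827, 28.2 (resistant) and 26.3 (parental) CPM in PC9, and 0.295 (resistant) and 0.338 (parental) CPM in H1975. HCC827 and PC9 overlapped, with a log2 difference of 0.01 ± 0.29 (SE). The pooled HOXA3 level was 86.7-fold higher in HCC827 than in H1975 (95% exact interval 54.0 to 149.3, counting error only). HOXA2, which sets the identity of the branchial arches, measured 5.16 (resistant) and 2.65 (parental) CPM in HCC827, 3.89 (resistant) and 4.59 (parental) CPM in PC9, and 0.164 (resistant) and 0.0846 (parental) CPM in H1975. HOXA2 also overlapped between HCC827 and PC9, and H1975 lay below both.

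HOXA5, required for normal lung development in mouse, measured 5.23 (resistant) and 3.20 (parental) CPM in HCC827, 1.55 (resistant) and 2.80 (parental) CPM in PC9, and 0.458 (resistant) and 0.677 (parental) CPM in H1975. Its 3 line ranges did not overlap, but no line contrast passed the test (the smallest adjusted p, HCC827 against H1975, was 0.0535 in edgeR). HOXA5 lies inside the HOXA3 span, and only 5.9% of its reads were unique. The posterior HOXA genes ran differently. HOXA9, known from leukaemia and for its use in the posterior trunk and limb, stood at 0.187 (resistant) and 1.02 (parental) CPM in HCC827, 7.07 (resistant) and 7.39 (parental) CPM in PC9, and 0.720 (resistant) and 0.761 (parental) CPM in H1975. PC9 was above every other library for HOXA9. HOXA10, which patterns the uterus and limb, stood at 6.61 (resistant) and 23.3 (parental) CPM in HCC827, 4.18 (resistant) and 3.72 (parental) CPM in PC9, and 5.14 (resistant) and 5.67 (parental) CPM in H1975. In PC9 none of the HOXA10 reads was unique, so its level there is uncertain. HOXA11 was between 1.93 and 2.30 CPM in PC9, between 0.336 and 1.60 CPM in HCC827, and at 2 reads in all in H1975. HOXA13, the limb-end and urogenital gene of the cluster, stayed between 0.483 and 2.28 CPM in all 6 libraries, and HOXA4, HOXA6 and HOXA7 stayed at or below 1.02 CPM.

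The HOXC cluster made up the largest share of HOX transcripts in H1975, with 64.1% of summed HOX TPM in resistant and 60.3% in parental cells, against 22.7% and 27.2% in resistant and parental HCC827 and 11.9% and 11.3% in resistant and parental PC9. HOXC13, which controls hair and nail keratin genes, was the highest H1975 member by TPM. It stood at 3.10 (resistant) and 5.63 (parental) CPM in HCC827, 4.47 (resistant) and 7.83 (parental) CPM in PC9, and 7.76 (resistant) and 5.46 (parental) CPM in H1975, with overlapping ranges in all 3 lines. HOXC10, used in the lumbar region and hind limb, marked HCC827 with 13.6 (resistant) and 23.5 (parental) CPM. In PC9 HOXC10 stood at 1.09 (resistant) and 0.870 (parental) CPM, and in H1975 at 1.90 (resistant) and 1.82 (parental) CPM. HOXC11, its posterior neighbour, measured 7.89 (resistant) and 6.94 (parental) CPM in HCC827, 2.88 (resistant) and 3.24 (parental) CPM in PC9, and 0.295 (resistant) and 0.0846 (parental) CPM in H1975. For neither gene did the ranges of any pair of lines overlap. The HOXC10 reads were 36.7% unique and the HOXC11 reads 100%.

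The anterior and middle HOXC genes were lower. HOXC4 was highest in H1975 at 4.29 (resistant) and 3.17 (parental) CPM, against 2.17 (resistant) and 1.13 (parental) CPM in HCC827 and 0.669 (resistant) and 0.725 (parental) CPM in PC9. HOXC8 on all exon reads was also highest in H1975, at 2.59 (resistant) CPM, while parental H1975 (1.40 CPM) lay close to parental HCC827 (1.42 CPM). Its unique reads numbered 1 in resistant and 4 in parental H1975, 1 in each HCC827 library and 0 in each PC9 library. The order of the lines for HOXC8 is therefore uncertain. HOXC6 ranged over 1.11 to 4.19 CPM and HOXC9 over 0.710 to 1.85 CPM in the 6 libraries. HOXC5 stayed at or below 0.747 CPM, and HOXC12 exceeded 1 CPM only in parental HCC827, at 1.49 CPM.

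The HOXD cluster was close to silent. Only HOXD4, a hindbrain and neck gene, reached 1 CPM, at 2.85 (resistant) and 1.44 (parental) CPM in H1975 with 0 reads in all 4 HCC827 and PC9 libraries. HOXD4 was at least 20.2-fold lower in HCC827 and at least 16.6-fold lower in PC9 than in H1975. HOXD4 lies inside the HOXD3 span, and 14.9% of its reads were unique. HOXD12 and HOXD13, the genes of digit formation, had 0 reads in every library. HOXD1 and HOXD9 had 13 reads each in parental HCC827 and none elsewhere, HOXD8 stayed at or below 0.676 CPM, and HOXD3, HOXD10 and HOXD11 stayed at or below 0.196 CPM.

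**Figure D2:**
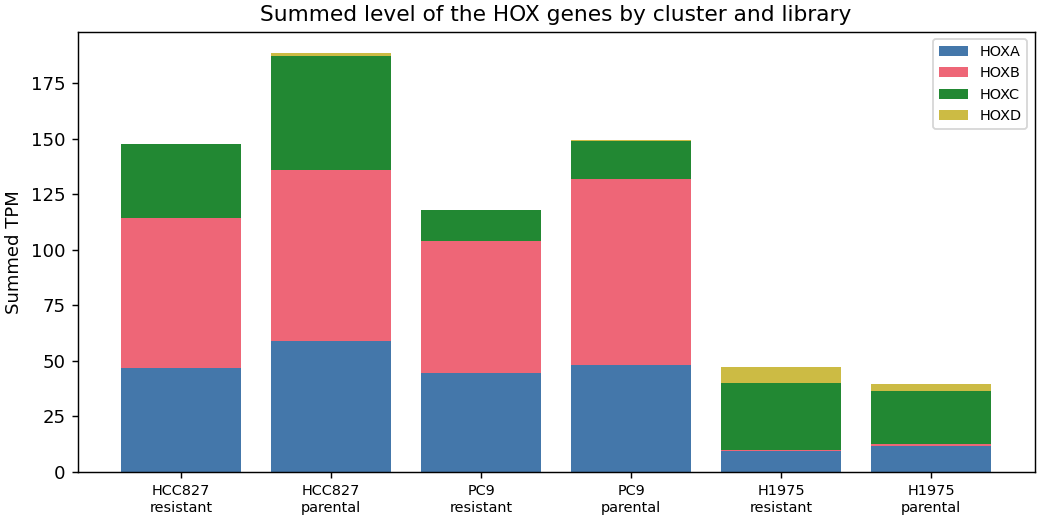
Stacked bars of the summed TPM of each HOX cluster in each library, resistant beside parental within each line. By TPM HOXB is the largest cluster in HCC827 and PC9 and is under 1 TPM in both H1975 libraries, where HOXC is the largest. By summed CPM HOXA exceeded HOXB in parental HCC827 (69.9 against 59.0) and resistant PC9 (51.2 against 41.4). It was below HOXB in resistant HCC827 (56.8 against 56.9) and parental PC9 (50.8 against 59.5).

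Whether the lines differed by more than their 2 libraries was tested with edgeR's quasi-likelihood fit over 14436 genes, with resistance as a term. The 2 libraries of a line share their origin, so the spread is that between the states of a line and not between independent cultures. Of the 30 members that passed the filter on low counts, 15 differed among the 3 lines, against 29.6% of all genes tested. A filter passed through the line where a gene is high favours members that differ, so this count and the pairwise counts below are descriptions. HOXB13, with 0 reads in the PC9 and H1975 libraries, passed the filter through HCC827 only. So did HOXB2, with 5 or fewer reads in each of those libraries. HOXD4, with 0 reads in the HCC827 and PC9 libraries, passed through H1975 only. Test values given for these genes are descriptions too. The 15 included HOXA2, HOXA3, HOXA9, HOXB2, HOXB3, HOXB7, HOXB13, HOXC10, HOXC11 and HOXD4.

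Against H1975, 13 members were higher in HCC827 and 0 lower, while 15.3% of all genes passed (7.67% higher and 7.68% lower). They included HOXA2, HOXA3, HOXB2, HOXB3, HOXB5, HOXB6, HOXB7, HOXB13, HOXC10 and HOXC11. For HOXA3 the log2 difference was 6.41 ± 0.38 (SE, edgeR adjusted p = 0.0112), and for HOXC10 3.29 ± 0.51 (adjusted p = 0.0288). In PC9, 12 members were higher than in H1975 and 0 lower, while 22.8% of all genes passed (11.6% higher and 11.2% lower). They included HOXA2, HOXA3, HOXA9, HOXA11, HOXB3, HOXB5, HOXB6, HOXB7 and HOXC11. HOXA9 was higher by 3.28 ± 0.82 (log2, SE, edgeR adjusted p = 0.0491) in PC9 than in H1975. On all exon reads the members highest in H1975 did not pass: HOXD4 had an edgeR adjusted p of 0.0585 against HCC827 and 0.0509 against PC9, and HOXC4 one of 0.052 for PC9 against H1975. The pairwise comparisons share libraries and are not independent of each other.

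HCC827 and PC9, which share the EGFR deletion, differed in fewer members. HOXB2, HOXB13 and HOXC10 were higher in HCC827 and 0 members were lower, while 13.9% of all genes passed (7.23% higher and 6.69% lower). The log2 difference of HOXC10 was 4.22 ± 0.54 (SE, edgeR adjusted p = 0.0227) and that of HOXB2 was 5.69 ± 0.70 (adjusted p = 0.0286). HOXA9 was lower in HCC827 by a log2 difference of −3.79 ± 0.86, with an adjusted p of 0.0513, which missed the 0.05 threshold. Counted on unique reads alone, these 3 members still passed, as did 9 of the 11 that could be tested for HCC827 against H1975 and 8 of the 10 for PC9 against H1975. HOXB5 and HOXB6 no longer passed for HCC827 against H1975, HOXB5 and HOXA9 no longer for PC9 against H1975, and HOXB8 and HOXB9 had too few unique reads to be tested. HOXB5 and HOXB6 had 0 unique reads in both H1975 libraries, and the HOXA9 difference was about as large as on all exon reads (log2 3.20 ± 0.83, SE, edgeR adjusted p = 0.0521). Other calls appeared only on unique reads. HOXA10, with 0 unique reads in both PC9 libraries, was higher in HCC827 than in PC9 (adjusted p = 0.0407) and lower in PC9 than in H1975 (adjusted p = 0.0341). HOXC4 was lower in PC9 than in H1975 (log2 −2.37 ± 0.56, SE, edgeR adjusted p = 0.0438). HOXB2 was called higher in PC9 than in H1975 (edgeR adjusted p = 0.046, and 0.05001 on all exon reads). This HOXB2 call rests on 5 reads in resistant and 3 in parental PC9, with 0 in both H1975 libraries. The pooled PC9 level was only at least 1.62-fold above the 3-read floor, so no line difference is drawn from it.

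These calls rest on few libraries. With a PC9 or H1975 library left out, the calls over all genes fell as well, so the loss was not particular to HOX members. With an HCC827 library left out, the member calls did not fall. With either the resistant or the parental PC9 library left out, edgeR called 0 members among the 3 lines, 0 for HCC827 against PC9, 1 for HCC827 against H1975 and 0 for PC9 against H1975. With either H1975 library left out, the counts were 3 among the 3 lines, 0 for HCC827 against H1975 and 2 for PC9 against H1975.

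**Figure D3:**
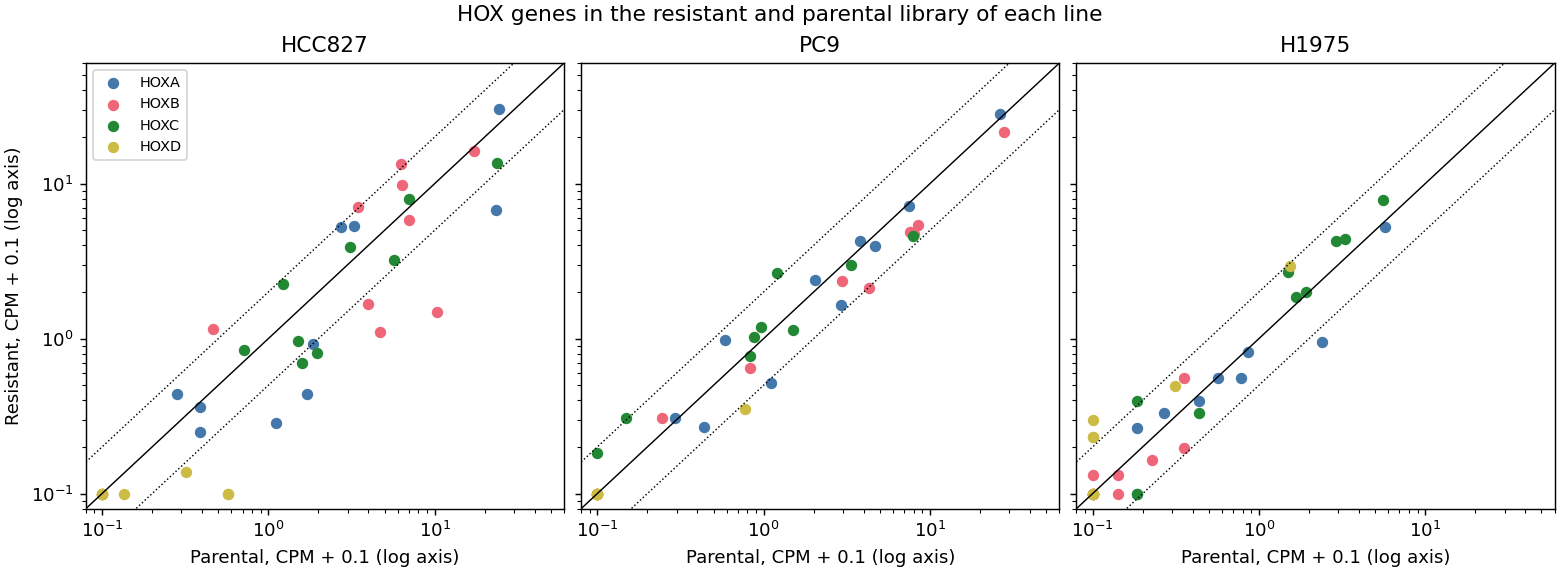
Resistant (vertical) against parental (horizontal) level of HOX members in each line, as CPM + 0.1 on log axes, coloured by cluster, with a solid line for equal levels and dotted lines at 2-fold. In HCC827 several HOXA and HOXB points lie below the lower dotted line, and in H1975 the HOXB points lie in the low corner.

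Most of each line's combination was present in its resistant subline. In HCC827, 19 members reached 1 CPM in resistant and 24 in parental cells, with 18 in both (94.7% of the resistant and 75.0% of the parental list). For comparison, 95.1% of all genes at 1 CPM in parental HCC827 were also at 1 CPM in resistant HCC827. In PC9, 18 members were detected in resistant and 18 in parental cells, with 17 in both (94.4% of each list, against 98.3% of all genes of the parental list). In H1975, 8 were detected in resistant and 9 in parental cells, with 8 in both (100% of the resistant and 88.9% of the parental list, against 96.6% of all genes of the parental list).

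The members lost were low in parental cells. HOXA9, HOXA11, HOXA13, HOXC8, HOXC9 and HOXC12 were under 1 CPM in resistant HCC827 and between 1.02 and 1.85 CPM in parental cells. HOXB4 was above 1 CPM only in resistant HCC827. In PC9 HOXA6 was detected only in parental and HOXC10 only in resistant cells, and in H1975 HOXA13 was detected only in parental cells, at 2.28 CPM, against 0.851 CPM in resistant cells. Across the 39 members, the log2(CPM + 1) values of resistant and own parental cells correlated at r = 0.889 in HCC827, 0.975 in PC9 and 0.96 in H1975, close to the values over 14217 genes of 0.903, 0.979 and 0.972 in the same lines. Between resistant HCC827 and parental PC9 the members correlated at r = 0.605, and between resistant PC9 and parental HCC827 at 0.758. Between a resistant and a parental library of which 1 was H1975 and the other HCC827 or PC9, r was 0.092 to 0.203. Over 14217 genes, resistant and parental libraries of different lines correlated at 0.783 to 0.835. These correlations are across genes, which are not independent replicates.

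Resistant HCC827 differed most from its parental cells. With 1 CPM added to each level, 3 of the 25 members at 1 CPM or more in either library were at least 2-fold lower (HOXA10, HOXB5 and HOXB6) and 0 at least 2-fold higher. Over all genes 20.2% passed 2-fold in HCC827 (11% higher and 9.18% lower). In PC9 0 of 19 members passed, against 5.67% of all genes (3.53% higher and 2.14% lower). In H1975 0 of 9 passed, against 6.95% of all genes (2.35% higher and 4.6% lower). The median log2 ratio of the members was −0.38 in HCC827, −0.23 in PC9 and 0.34 in H1975, beside −0.01, 0.00 and 0.04 over all genes in the same lines. These counts depend on the amount added: with 0.25 CPM, 2 members were at least 2-fold higher (HOXB2 and HOXB4) and 8 lower in resistant HCC827, 1 higher in PC9 (HOXC6) and 1 lower in H1975 (HOXA13). The shares of all genes above are for 1 CPM added and are no background for the counts with 0.25 CPM. There is 1 library per state, so these differences carry no replicate check and intervals cover counting error only.

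HOXB6 gave 37 reads in resistant and 282 reads in parental HCC827, a ratio of 0.135 (95% exact interval 0.0931 to 0.191). HOXB5 gave a ratio of 0.22 (0.140 to 0.336) and HOXA10 one of 0.284 (0.239 to 0.336). On unique reads the direction was the same, with 7 reads in resistant and 52 in parental cells for HOXB6, 1 and 12 for HOXB5, and 15 and 44 for HOXA10. The HOXB cluster thus moved unevenly in HCC827 on all exon reads. HOXB5, HOXB6 and HOXB8 (ratio 0.404) were lower in resistant cells, HOXB8 with only 2 unique reads in resistant and 3 in parental cells. HOXB7 (0.946, 0.828 to 1.08) and HOXB9 (0.834, 0.670 to 1.04) had intervals that included equality. HOXB2 (2.13, 1.77 to 2.57), HOXB13 (2.07, 1.61 to 2.68) and HOXB3 (1.56, 1.28 to 1.90) were higher, as was HOXB4 (2.88, 1.36 to 6.65), which had 3 unique reads in resistant and 0 in parental cells. Within HOXA, HOXA2 (1.95), HOXA5 (1.64) and HOXA3 (1.24) had higher levels in resistant cells (HOXA5 with 6 unique reads in each library), and HOXA9 (0.184), HOXA11 (0.21) and HOXA13 (0.472) lower ones. HOXC10 (0.577) and HOXC13 (0.551) were also lower in resistant HCC827.

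**Figure D4:**
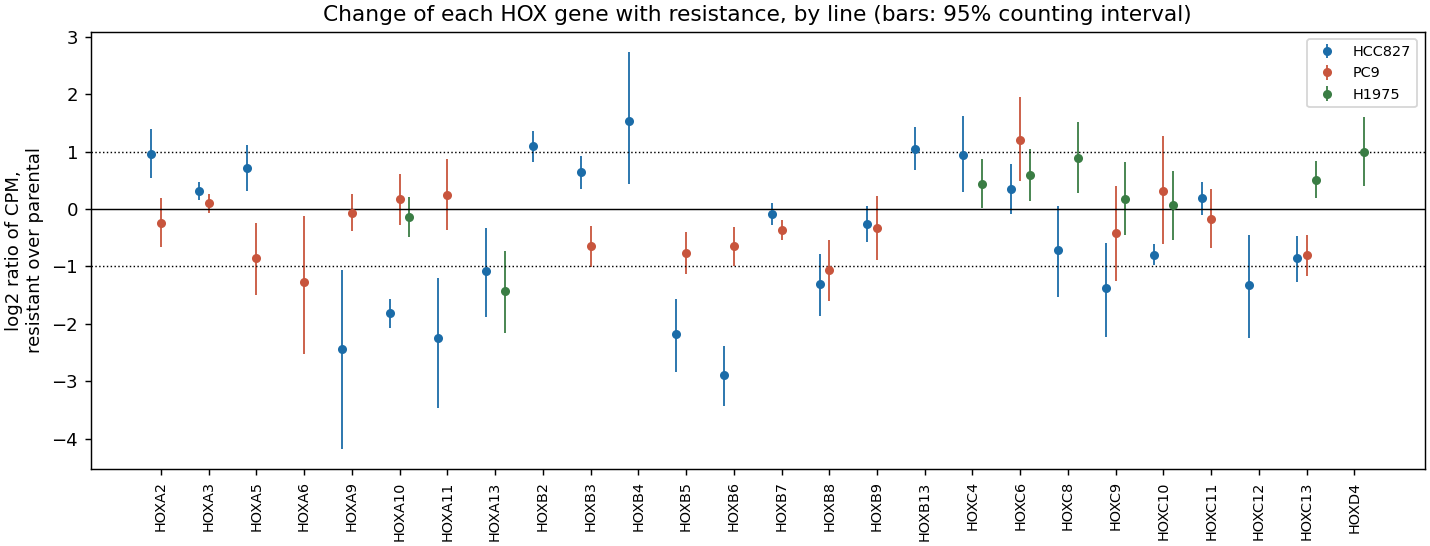
Log2 ratio of resistant over parental CPM with nothing added, for HOX members at 1 CPM or more in either library of a line (points coloured by line, bars the 95% counting interval, dotted lines at 2-fold). HOXB6 in HCC827 has the lowest ratio, 0.135, while HOXB2 and HOXB13 in HCC827 lie just above the upper 2-fold line.

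Lung epithelial markers moved in the same subline. Of the 11 list members at 1 CPM or more, 8 were at least 2-fold lower in resistant HCC827, 1 in resistant PC9 and 4 in resistant H1975. Over all genes 9.18% were at least 2-fold lower in HCC827, 2.14% in PC9 and 4.6% in H1975. The list summed to 5395 CPM in resistant and 13820 CPM in parental HCC827, 7561 CPM in resistant and 8713 CPM in parental PC9, and 1734 CPM in resistant and 2767 CPM in parental H1975. EPCAM, an epithelial adhesion protein, stood at 10.5 CPM in resistant and 431 CPM in parental HCC827, and at 730 CPM in resistant and 743 CPM in parental PC9. In H1975 EPCAM was at 0.458 CPM in resistant and 26.5 CPM in parental cells. CD68 stood at 174.8 CPM in resistant and 80.4 CPM in parental HCC827, 123.3 CPM in resistant and 50.9 CPM in parental PC9, and 123.7 CPM in resistant and 129.5 CPM in parental H1975. The part of these shifts in the HOX ratios was not tested.

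In PC9 the changes were smaller and mostly downward. HOXB5 (ratio 0.589, 0.459 to 0.755), HOXB6 (0.64, 0.505 to 0.809), HOXB8 (0.477, 0.328 to 0.687) and HOXC13 (0.572, 0.443 to 0.734) were lower in resistant cells, and HOXC6 (2.30, 1.40 to 3.88) was higher. HOXA3, HOXA9, HOXA10, HOXA11 and HOXC11 had intervals that included equality. On unique reads HOXB5 had 10 in resistant and 15 in parental PC9, HOXB6 23 and 28, HOXB8 3 and 12, and HOXC6 11 and 4. In H1975, HOXC13 (1.42, 1.14 to 1.78) and HOXD4 (1.98, 1.32 to 3.04) were higher in resistant cells, with 11 unique HOXD4 reads in resistant and 7 in parental cells. HOXC9 (1.13, 0.730 to 1.76) and HOXC10 (1.04, 0.692 to 1.59) had intervals that included equality. HOXC6 and HOXC8 had ratios of 1.5 and 1.85 on all exon reads, but their unique reads, 10 in resistant and 9 in parental cells for HOXC6 and 1 and 4 for HOXC8, were lower in resistant cells per library size, so no direction is given for them. HOXA13 (0.373, 0.224 to 0.605) was lower in resistant H1975. HOXC13 thus had the opposite direction in H1975 from HCC827 and PC9.

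No HOX member passed the test of a change common to the 3 resistant sublines. With the cell line as a block, 0 of the 22 members tested and 0 of 13541 genes passed in edgeR (0% of all genes), and at an unadjusted p under 0.05 there were 0 members and 502 genes. DESeq2 called 58 genes (0.428%) and 0 members. The smallest member p belonged to HOXB5, with a log2 difference of −1.31 ± 0.57 (SE) for resistant against parental cells, an edgeR p of 0.0727 and an adjusted p of 0.903. HOXB5 was lower in resistant HCC827 and PC9, and had 1 read in each H1975 library. HOXB6 and HOXB8 had log2 differences of −1.42 ± 0.89 and −1.31 ± 0.59 (SE).

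The partners and regulators of HOX proteins were read from the same fits. Of the 9 TALE homeodomain cofactors, which bind DNA together with HOX proteins, 8 reached 1 CPM in a library. MEIS3, which measured 0.251 (resistant) and 0 (parental) CPM in PC9 and 6.22 (resistant) and 2.54 (parental) CPM in H1975, was lower in PC9 than in H1975 (log2 −5.20 ± 1.24, SE, edgeR adjusted p = 0.0447), and this was the only TALE gene to pass in a line contrast. MEIS3 was at or below 0.251 CPM in HCC827 and PC9 and passed the low-count filter through H1975 only, so this call is a description.

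All 11 genes of Polycomb repressive complex 2, which places the H3K27 methyl mark, reached 1 CPM. Between lines 1 was higher and 1 lower in HCC827 than in H1975, 0 differed between HCC827 and PC9, and 1 was lower in PC9 than in H1975. EZH2, the catalytic subunit, measured 33.3 (resistant) and 68.4 (parental) CPM in HCC827, 55.1 (resistant) and 76.9 (parental) CPM in PC9, and 68.4 (resistant) and 88.9 (parental) CPM in H1975. Among 16 genes of Polycomb complex 1, 5 were higher and 2 lower in PC9 than in H1975, PHC1 by 2.82 ± 0.29 (log2, SE, edgeR adjusted p = 0.0123). In HCC827, 3 were higher and 3 lower than in H1975, and 1 was higher and 1 lower than in PC9. Over all genes 22.8% passed for PC9 against H1975, 15.3% for HCC827 against H1975 and 13.9% for HCC827 against PC9. KDM6A, which removes the H3K27 methyl mark, was higher in HCC827 than in PC9 by 1.62 ± 0.23 (log2, SE, edgeR adjusted p = 0.0272) and lower in PC9 than in H1975 (log2 −1.99 ± 0.24, adjusted p = 0.0142). In the resistant against parental test 0 genes of the TALE, Polycomb and trithorax lists passed in edgeR or DESeq2. At an unadjusted p under 0.05 in edgeR there were 2, EZH2 and SUZ12, both of Polycomb repressive complex 2. EZH2 was named for its role and not by the rule that chose the other genes named from these lists.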

How the data were processed

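Poly(A) RNA of 6 libraries, 3 resistant and 3 parental, was sequenced. Per the submitters' processing notes, reads were trimmed with Trimmomatic and aligned to hg38 with Bowtie2, with no versions given. The read counter and annotation were not given in the sources used here. Per the file headers, the deposited tables hold total, unique and intron read counts per gene and a TPM value, computed by the authors. Whole exon read counts were used for tests and CPM, and TPM only to compare levels between genes.

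CPM used library sizes times TMM factors (edgeR 4.0.16, R 4.3.3). Genes were filtered with filterByExpr (minimum count 10, minimum total 15) and fitted with glmQLFit and glmQLFTest on line and state, leaving 2 residual degrees of freedom, two-sided, and p-values were adjusted across every gene tested (Benjamini-Hochberg, threshold 0.05). The cell line pairs the libraries: over 14217 genes, deviations from the state means correlated at 0.608 in HCC827, 0.852 in PC9 and 0.807 in H1975 between a line's libraries, and at most −0.148 between lines. Taking out the mean of the lines in each state itself pulls the between-line values down, so their negative sign carries no weight. DESeq2 1.42.0 was an alternative. The fits were tested on simulated data. Within-line ratios had no test, and their 95% intervals are exact binomial (Clopper-Pearson). Fold bounds use 3 reads per library.

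Members with 5 CPM or more in a library were given in full, and of each related list up to 4 genes with the widest range of line means. Named outside this rule were EZH2, KRT7, KRT8, KRT18, KRT19, SFTPC, PTPRC, CD3E, CYP26A1, RDH10, RARB and the CDX genes. The members and lists were chosen with earlier results of these data known. Promoter windows came from RefSeq (GRCh38.p14). Non-coding genes of the clusters are not analysed here, and some genes that these rules would name are not reported here; counts and sums cover all members.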

Additional observations from a re-analysis of the deposited data

Results flagged for a closer look

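Intron reads, which entered no comparison above, reached 1 CPM for 4 genes in a line where both exon levels of the gene were under 1 CPM. HOXD3 had 81 intron reads in resistant H1975 and 6 in parental H1975, beside 6 exon reads in resistant and 0 in parental cells; HOXD4 lies inside its span. HOXA9 had 38 intron reads in resistant H1975. HOXA3 had 34 intron reads in parental H1975, although its exon level there was 0.338 CPM. HOXC4 had 23 intron reads in parental PC9, where its exon level was 0.725 CPM. What these reads come from was not tested. No test for outlying libraries was run, since the groups hold 3 libraries.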

How the results depend on the processing

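Leaving out 1 library at a time leaves 1 residual degree of freedom, and the number of members called then ranged from 0 to 17 among the 3 lines, 0 to 4 for HCC827 against PC9, 0 to 16 for HCC827 against H1975 and 0 to 15 for PC9 against H1975. The low ends came from leaving out a PC9 or H1975 library, and the cause was not tested. DESeq2 called 5 members for HCC827 against PC9. Members at 2-fold within a line numbered 5 in HCC827 with TPM, and 10 in HCC827, 1 in PC9 and 1 in H1975 with 0.25 CPM added. The shares of all genes at these settings are not given here. Members detected in both libraries numbered 4 in H1975 at 2 CPM, and 11 in HCC827, 10 in PC9 and 2 in H1975 on unique reads, which nested genes mostly lack. The 28 log2 differences called between lines were all called with relative log expression scaling, and 1 was lost with no filter. The test of resistant against parental cells without the pairing by line (no block) called 0 members and 0 genes, as with it. None of these 28 line differences reversed under the alternatives in which it could be tested. Within H1975, HOXC6 and HOXC8 were higher in resistant cells on all exon reads but lower per library size on unique reads. Over all genes, DESeq2 called 7420 among the 3 lines, 4473 for HCC827 against PC9, 4761 for HCC827 against H1975 and 5395 for PC9 against H1975, against 4279, 2010, 2215 and 3292 in edgeR. With 1 library left out these edgeR counts ranged from 0 to 6945, 0 to 3499, 0 to 3264 and 0 to 5860.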

Other observations

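Retinoic acid, which induces anterior HOX genes in embryos, is made, carried and degraded by genes of which several passed in line contrasts, and 0 of 11 tested passed in resistant against parental cells (2 at an unadjusted p under 0.05 in edgeR, 0 in DESeq2). Of 20 caudal and retinoic acid genes, 14 reached 1 CPM in a library and 5 were higher and 0 lower in HCC827 than in H1975 (12 tested). Over all genes 7.67% were higher and 7.68% lower in that contrast. ALDH1A3, which makes retinoic acid, was lower in HCC827 than in PC9 (log2 −1.88 ± 0.35, SE, edgeR adjusted p = 0.0378) and higher in PC9 than in H1975 by 4.05 ± 0.39 (adjusted p = 0.0114). CRABP2, which carries retinoic acid to its nuclear receptors, was higher in PC9 than in H1975 by 4.03 ± 0.62 (adjusted p = 0.0201). CYP26B1, which breaks retinoic acid down, was lower in HCC827 than in PC9 (log2 −5.14 ± 1.10, SE, edgeR adjusted p = 0.0465). CDX1 and CDX4, caudal-type activators of posterior HOX genes, had 0 reads in every library, and CDX2 was at or below 0.145 CPM. RARB, a retinoic acid receptor and target, stood at 2.47 CPM in resistant and 0.0727 CPM in parental HCC827. CYP26A1, another enzyme that breaks retinoic acid down (log2 5.70 ± 1.04, SE, edgeR adjusted p = 0.036), and RDH10, an upstream enzyme of its synthesis (log2 1.70 ± 0.28, adjusted p = 0.0316), were higher in HCC827 than in PC9. CYP26A1, at or below 0.29 CPM in PC9 and H1975, passed the low-count filter through HCC827 only, so its call is a description. CYP26A1, RDH10, RARB and the CDX genes were named after their values were seen.

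Of 13 genes next to the clusters that were matched, 8 reached 1 CPM in a library, and 1 of them passed for PC9 against H1975 (22.8% of all genes) and 1 for HCC827 against H1975 (15.3%). SKAP1, beside HOXB, stood at 2.34 CPM in resistant and 2.995 CPM in parental PC9 with 0 reads in both H1975 libraries, and was higher in PC9 (edgeR adjusted p = 0.0262). LNPK, beside HOXD, was lower in HCC827 than in H1975 (log2 −1.32 ± 0.29, SE, edgeR adjusted p = 0.0475). No other of the 8 neighbours tested passed in a pairwise line contrast.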
